A study of Mus musculus with 53 samples.

Results

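The 9 genes Sez6l, Plppr4, 1700047G03Rik, Cck, Oxtr, Tfr2, Cela1, Adh6b and Rgs1 were followed in the sciatic nerve of mice fed a high-fat diet (HFD). They are 9 of the 49568 genes in the deposited files and were selected on their 24-week values: higher in HFD than in standard diet (SD) nerve, and lower after the mice were returned to a standard diet. The 24-week disease and reversal values are therefore given here as a description and without a test. The 16-week samples were not part of that choice. Their products are known from different settings, among them neurons, liver, uterus, intestine and lymphocytes.

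RNA-seq was performed on 53 sciatic nerve samples of C57BL/6J mice in 8 groups, and the study's methods state that the mice were male. SD mice were sampled at 16 weeks (5 samples) and 24 weeks (8 samples) of age. HFD mice received a diet with 60% of calories from fat from 5 weeks of age, as a model of prediabetes, and were sampled at 16 weeks (7 samples) and 24 weeks (7 samples). HFD-STZ mice ate the same diet and were given streptozotocin (STZ), a toxin of pancreatic beta cells, at 12 weeks of age in doses of 75 and 50 mg/kg, as a model of type 2 diabetes (T2D), with 5 samples at 16 weeks and 8 at 24 weeks. For dietary reversal (DR), HFD and HFD-STZ mice changed at 16 weeks to a control diet with 13% of calories from fat for 8 weeks, which gave 7 samples of HFD-DR and 6 of HFD-STZ-DR, all taken at 24 weeks. That share of fat is from the labels, whereas the study's methods return these mice to the diet of the SD mice and list it with a lower share of fat, so the exact composition of the reversal diet is uncertain. STZ therefore always came on top of HFD, no group received STZ on SD, and all reversed mice had eaten HFD first. The labels do not say that each sample is a separate mouse, so the p-values measure the spread between samples.

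Each gene has 1 deposited value per sample on a log2 scale, normalised between samples by a method that the sources used here do not name, and the counts behind the values were not used here. All differences are on this scale, and levels are not compared between genes. The labels describe TRIzol extraction and a TruSeq mRNA kit, whereas the study's methods name RNeasy extraction and the SMART-Seq v4 kit, so the kit used for these samples cannot be told. Of the 9 genes, 9 passed the filter on low values (mean of at least 10 on the linear scale, 3.32 on the log2 scale) in the 16-week HFD and SD comparison, and Adh6b did not pass it in the 16-week HFD-STZ and SD comparison. Samples correlated with each other at 0.916 to 0.994 over all genes that passed the filter. HFD-STZ24wk replicate 7 held 23 genes with values above 22, up to 61.4, and HFD24wk replicate 1 held 2 such genes, up to 55.7. The highest value of the other genes was 20.96. What the values above 22 stand for was not tested, and they are not read as levels of RNA. The 24-week values below are also given without these samples where that turned a direction. The neuron markers Tubb3, Nefl and Calca were among the genes left out for these values. Schwann cell, endothelial and fibroblast markers were all above the filter in these nerves. Of the 4 exocrine pancreas markers, 0 reached the filter, with means over all samples of 1.15 (Prss1), 1.45 (Cpa1), 2.40 (Pnlip) and 0.48 (Amy2a5), and of the 3 hepatocyte markers only Alb did.

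Nerve is wrapped and accompanied by connective tissue that holds fat cells, macrophages and vessels. Fat cells store triglycerides and secrete adiponectin (Adipoq) and leptin (Lep), with perilipin 1 (Plin1) on their lipid droplets. Macrophages carry CD68 (Cd68) in their lysosomes, and those that gather around overfilled fat cells in obesity are known for CD11c (Itgax).

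In the mouse genome (GRCm38, GENCODE M21), Sez6l is a protein-coding gene at chromosome 5, 112419151 to 112577185, minus strand, Plppr4 at chromosome 3, 117319139 to 117360876, minus strand, Oxtr at chromosome 6, 112473683 to 112489943, minus strand and Tfr2 at chromosome 5, 137569840 to 137587481, plus strand. Cck lies at chromosome 9, 121489824 to 121495694, minus strand, Cela1 at chromosome 15, 100674421 to 100687921, minus strand, Adh6b at chromosome 3, 138341775 to 138358861, plus strand and Rgs1 at chromosome 1, 144242296 to 144249242, minus strand. The non-coding 1700047G03Rik, a lincRNA, lies at chromosome 15, 11964276 to 11970086, plus strand, 11253 bases from the next gene, Sub1. The genes lie on 6 chromosomes. Libraries were non-stranded per the study's methods, so reads of a gene and of one on the opposite strand cannot be told apart. Sez6l shares 2313 bases with Gm6588 on the opposite strand, whose mean value was 1.03, and Plppr4 shares 65 bases with the miRNA gene Gm22408, which was listed at 0. 1700047G03Rik shares 260 bases with Gm24074 on its own strand, whose mean value was 1.19. In 100-base stretches of the longest transcript, 2.45% of Adh6b also occurred in the snRNA gene Gm23467, which was listed at 0, and 0% of the other 8 genes occurred elsewhere.

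The 250 bases before the RefSeq start (GRCm38.p6) were read for the 7 of 9 genes found in that table. They are shown for 1700047G03Rik, which had the largest diet difference, for Sez6l and Cela1, which stood apart from SD in both models, and for Oxtr, which followed Itgax most closely. Plppr4 also stood apart from SD in both models, but held none of the 8 motifs and is not shown. Capitals mark the motifs searched on both strands: a CCAAT box with those letters, a GC box written GGGCGG, an E-box written CACGTG, the nuclear receptor motif AGGTCA, and the motif TATAAA, known as the TATA box. In Oxtr a GC box and an E-box touch without overlapping.
1700047G03Rik, chr15:11966812-11967061, plus strand, which lies within the GENCODE gene: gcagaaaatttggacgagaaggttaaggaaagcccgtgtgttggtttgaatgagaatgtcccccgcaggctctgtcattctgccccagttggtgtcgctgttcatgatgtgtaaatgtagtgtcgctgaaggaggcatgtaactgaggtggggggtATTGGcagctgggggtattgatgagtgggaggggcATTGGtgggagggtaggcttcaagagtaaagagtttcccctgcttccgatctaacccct
Sez6l, chr5:112577199-112577448, minus strand: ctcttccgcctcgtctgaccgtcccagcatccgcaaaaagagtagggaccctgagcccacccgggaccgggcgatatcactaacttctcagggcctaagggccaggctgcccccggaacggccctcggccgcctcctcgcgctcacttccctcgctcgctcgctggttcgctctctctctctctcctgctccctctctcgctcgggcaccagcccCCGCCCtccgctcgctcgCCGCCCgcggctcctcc
Oxtr, chr6:112489826-112490075, minus strand: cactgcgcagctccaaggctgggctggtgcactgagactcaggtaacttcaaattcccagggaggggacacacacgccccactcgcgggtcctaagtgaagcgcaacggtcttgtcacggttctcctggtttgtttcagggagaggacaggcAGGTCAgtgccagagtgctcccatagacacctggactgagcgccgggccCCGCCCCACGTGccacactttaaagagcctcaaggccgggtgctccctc
Cela1, chr15:100687921-100688170, minus strand: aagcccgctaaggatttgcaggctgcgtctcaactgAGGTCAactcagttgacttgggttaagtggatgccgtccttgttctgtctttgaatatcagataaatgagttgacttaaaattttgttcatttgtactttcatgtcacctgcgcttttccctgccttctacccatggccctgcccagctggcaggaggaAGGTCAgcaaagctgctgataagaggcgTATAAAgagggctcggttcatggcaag
The Sez6l window was 69.6% G and C, against a median of 52% over 27025 mouse promoters, and that of Cela1 48%. GGGCGG was found in Sez6l, Oxtr and Tfr2 and in 32.9% of all promoters. AGGTCA was found in Oxtr and Cela1 and in 13.8% of all promoters, CACGTG in Cck and Oxtr and in 6.05%, CCAAT in 1700047G03Rik and in 34.5%, and TATAAA in Cela1 and in 13%. TGACG, the core of the cAMP response element, was found in Cck and in 17.9% of all promoters. The C/EBP motif TTGCGCAA (0.17% of all promoters) and the STAT motif TTCNNNGAA (7.18%) were found in 0 of the 7, and Plppr4 held none of the 8 motifs. No motif was shared by more than 3 of the 7 genes. A match is a description of letters and not of a site.

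Oxtr and Tfr2 encode receptors. Oxtr is the G protein-coupled receptor of oxytocin, best known for contraction of the uterus and milk ejection. Oxtr had a lowest, median and highest value of 7.96, 8.23 and 8.70 in SD and 8.75, 10.69 and 12.07 in HFD nerve at 24 weeks. For Oxtr the same values were 8.41, 9.77 and 11.07 in HFD-STZ, 8.12, 8.57 and 9.66 in HFD-DR and 7.76, 8.27 and 8.73 in HFD-STZ-DR nerve. All 7 HFD samples stood above all SD samples, with a difference of means of 2.19 (log2). After reversal the mean was -1.81 relative to HFD and -1.64 relative to HFD-STZ, and HFD-STZ-DR nerve ended -0.12 from SD. Oxtr at 16 weeks was at 8.27, 8.39, 8.41, 8.49 and 8.52 in the 5 SD samples, the HFD samples had a lowest, median and highest value of 7.61, 9.87 and 11.57, and the 5 HFD-STZ samples were at 8.27, 8.28, 8.64, 8.72 and 9.16. The SD samples lay close together, and 6 of 7 HFD samples were above all of them while 1 was below. Oxtr in HFD differed from SD at 16 weeks by 1.29 (SE 0.50, 95% interval 0.20 to 2.37), with an adjusted p of 0.553 in limma and an exact permutation p of 0.0429. STZ on HFD differed from HFD alone at 16 weeks by -1.09 (SE 0.51, 95% interval -2.19 to 0.00), with an adjusted p of 0.987 in limma and an exact permutation p of 0.0884.

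Tfr2 is the second transferrin receptor, which takes part in iron sensing upstream of hepcidin in hepatocytes and in erythroid precursors. Tfr2 had a lowest, median and highest value of 5.11, 5.38 and 5.90 in SD and 6.24, 7.93 and 9.15 in HFD nerve at 24 weeks. For Tfr2 the same values were 5.53, 6.69 and 7.70 in HFD-STZ, 4.80, 5.31 and 7.13 in HFD-DR and 4.53, 5.07 and 5.12 in HFD-STZ-DR nerve. The HFD and SD groups were apart, by 2.35, and the HFD-STZ and HFD-STZ-DR groups were apart as well, by -1.77. Tfr2 at 16 weeks was at 4.83, 4.97, 4.97, 5.20 and 5.34 in the 5 SD samples, the HFD samples had a lowest, median and highest value of 4.80, 6.35 and 8.17, and the 5 HFD-STZ samples were at 4.73, 4.82, 4.92, 5.20 and 5.31. HFD samples spanned more than 3 log2 units and 6 of 7 were above all SD samples, whereas the HFD-STZ samples overlapped SD. Tfr2 in HFD differed from SD by 1.44 (SE 0.47, 95% interval 0.44 to 2.45), with an adjusted p of 0.466 in limma and an exact permutation p of 0.0177. For HFD-STZ the Tfr2 difference was -0.07 (SE 0.18, 95% interval -0.46 to 0.32), with an adjusted p of 0.89 in limma and an exact permutation p of 0.595. Tfr2 had the smallest unadjusted p of the 9 genes between HFD-STZ and HFD at 16 weeks (0.00573), where the difference was -1.51 (SE 0.46, 95% interval -2.51 to -0.52), with an adjusted p of 0.987 in limma and an exact permutation p of 0.0152.

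Rgs1 encodes a regulator of G protein signalling that shortens signals of chemokine receptors in lymphocytes and macrophages. Rgs1 had a lowest, median and highest value of 3.05, 4.0 and 4.59 in SD and 5.30, 6.61 and 7.75 in HFD nerve at 24 weeks. For Rgs1 the same values were 3.87, 4.84 and 6.76 in HFD-STZ, 3.09, 4.31 and 6.13 in HFD-DR and 3.06, 4.16 and 5.76 in HFD-STZ-DR nerve. All 7 HFD samples were above all SD samples, by 2.40 on average, and 6 of 8 HFD-STZ samples were. Rgs1 at 16 weeks was at 2.91, 3.23, 3.62, 3.93 and 4.65 in the 5 SD samples, the HFD samples had a lowest, median and highest value of 3.50, 6.06 and 6.97, and the 5 HFD-STZ samples were at 3.39, 3.44, 4.08, 4.10 and 5.32. The HFD samples fell into 4 values above all SD samples and 3 within their range. Rgs1 in HFD differed from SD by 1.57 (SE 0.64, 95% interval 0.20 to 2.94), with an adjusted p of 0.566 in limma and an exact permutation p of 0.0758. For HFD-STZ the Rgs1 difference was 0.40 (SE 0.41, 95% interval -0.50 to 1.29), with an adjusted p of 0.716 in limma and an exact permutation p of 0.444. It was 0.09 without HFD-STZ16wk replicate 5, 0.21 without SD16wk replicate 2 and 0.64 without SD16wk replicate 1.

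Sez6l and Plppr4 encode membrane proteins best known from neurons: Sez6l belongs to a family of seizure-related proteins with CUB and sushi domains, and Plppr4 is a phospholipid phosphatase-related protein of synapses. Sez6l had a lowest, median and highest value of 4.29, 5.14 and 5.52 in SD and 6.00, 7.06 and 8.86 in HFD nerve at 24 weeks. For Sez6l the same values were 5.80, 7.19 and 7.94 in HFD-STZ, 4.30, 5.18 and 6.72 in HFD-DR and 3.68, 4.82 and 5.13 in HFD-STZ-DR nerve. Sez6l was apart from SD in both models, by 2.15 in HFD and 2.12 in HFD-STZ, and all 6 HFD-STZ-DR samples were below all HFD-STZ samples. Sez6l at 16 weeks was at 3.22, 5.00, 5.01, 5.23 and 5.39 in the 5 SD samples, the HFD samples had a lowest, median and highest value of 3.44, 6.11 and 8.44, and the 5 HFD-STZ samples were at 4.66, 4.74, 4.96, 6.33 and 6.89. SD replicate 5, at 3.22, was far below the other 4 SD samples. Sez6l in HFD differed from SD at 16 weeks by 1.53 (SE 0.70, 95% interval 0.03 to 3.03), with an adjusted p of 0.572 in limma and an exact permutation p of 0.0859. The HFD-STZ difference was 0.75 (SE 0.52, 95% interval -0.39 to 1.88), with an adjusted p of 0.621 in limma and an exact permutation p of 0.278, and was 0.36 without SD16wk replicate 5 and 0.40 without HFD-STZ16wk replicate 5. HFD-STZ and HFD nerve at 24 weeks differed by -0.03, or 0.09 without the samples that held values above 22, so no direction is given for this pair.

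Plppr4 had a lowest, median and highest value of 3.82, 4.25 and 4.78 in SD and 5.03, 6.23 and 7.37 in HFD nerve at 24 weeks. For Plppr4 the same values were 4.88, 5.94 and 6.49 in HFD-STZ, 4.35, 5.25 and 5.63 in HFD-DR and 3.95, 4.93 and 5.65 in HFD-STZ-DR nerve. Plppr4 was apart from SD in both models. After reversal it had the largest difference from SD of the 9 genes, 0.86 in HFD-DR and 0.68 in HFD-STZ-DR nerve, although the groups overlapped. Plppr4 at 16 weeks was at 3.62, 3.86, 3.97, 4.64 and 4.93 in the 5 SD samples, the HFD samples had a lowest, median and highest value of 3.63, 5.61 and 6.71, and the 5 HFD-STZ samples were at 4.24, 4.38, 4.50, 4.80 and 5.20. Plppr4 in HFD differed from SD at 16 weeks by 1.17 (SE 0.45, 95% interval 0.19 to 2.15), with an adjusted p of 0.553 in limma and an exact permutation p of 0.0505, and 5 of 7 HFD samples were above all SD samples. For HFD-STZ the Plppr4 difference was 0.42 (SE 0.29, 95% interval -0.21 to 1.05), with an adjusted p of 0.617 in limma and an exact permutation p of 0.206, and was 0.27 without SD16wk replicate 3 or HFD-STZ16wk replicate 5.

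1700047G03Rik, a non-coding RNA, had the widest range of the 9 genes. 1700047G03Rik had a lowest, median and highest value of 2.83, 3.84 and 4.69 in SD and 6.02, 7.64 and 9.03 in HFD nerve at 24 weeks. For 1700047G03Rik the same values were 4.36, 7.39 and 8.49 in HFD-STZ, 3.05, 4.28 and 6.30 in HFD-DR and 2.74, 3.25 and 4.10 in HFD-STZ-DR nerve. HFD exceeded SD by 3.89 and HFD-STZ exceeded SD by 3.29, where replicate 6 of HFD-STZ, at 4.36, lay within the SD range. The reversal differences were -3.05 and -3.74. 1700047G03Rik at 16 weeks was at 3.03, 3.33, 3.44, 3.63 and 3.74 in the 5 SD samples, the HFD samples had a lowest, median and highest value of 3.20, 6.75 and 8.35, and the 5 HFD-STZ samples were at 3.64, 3.86, 4.06, 4.82 and 5.70. All but 1 HFD sample and all but 1 HFD-STZ sample were above the highest SD sample. 1700047G03Rik in HFD differed from SD by 2.87 (SE 0.76, 95% interval 1.24 to 4.50), with an adjusted p of 0.384 in limma and an exact permutation p of 0.0126. The HFD-STZ difference was 0.98 (SE 0.36, 95% interval 0.19 to 1.77), with an adjusted p of 0.58 in limma and an exact permutation p of 0.0159. It was the 1 gene of the 9 whose HFD-STZ and SD values differed in the exact test. In limma with all 8 groups and the run of consecutive sample numbers in the titles as a block, the 1700047G03Rik difference was 0.81 with an unadjusted p of 0.266.

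Cck encodes cholecystokinin, a peptide of intestinal endocrine cells and neurons that stimulates the gallbladder and pancreas. In the T2D model it was the 1 gene of the 9 with a lower mean than SD at 24 weeks. Cck had a lowest, median and highest value of 3.15, 3.89 and 4.03 in SD and 3.96, 4.39 and 5.37 in HFD nerve at 24 weeks. For Cck the same values were 2.72, 3.57 and 3.79 in HFD-STZ, 2.68, 3.34 and 3.99 in HFD-DR and 3.07, 3.45 and 3.98 in HFD-STZ-DR nerve. Values of HFD were high, but those of HFD-STZ were not above SD, with differences from SD of 0.87 in HFD and -0.24 in HFD-STZ, and all 8 HFD-STZ samples were below all HFD samples. Reversal differed from HFD by -1.24 and from HFD-STZ by 0.02, or by -0.09 without HFD-STZ24wk replicate 7, whose value of 2.72 was the lowest of its group. Cck at 16 weeks was at 2.84, 2.97, 3.11, 3.32 and 3.63 in the 5 SD samples, the HFD samples had a lowest, median and highest value of 3.16, 3.61 and 4.03, and the 5 HFD-STZ samples were at 3.01, 3.48, 3.49, 3.71 and 3.82. The 3 groups overlapped at 16 weeks. Cck in HFD differed from SD by 0.43 (SE 0.22, 95% interval -0.05 to 0.91), with an adjusted p of 0.609 in limma and an exact permutation p of 0.0556. For HFD-STZ the Cck difference was 0.33 (SE 0.22, 95% interval -0.16 to 0.81), with an adjusted p of 0.617 in limma and an exact permutation p of 0.127. With the mean of the adipocyte markers as a covariate the HFD difference was -0.02.

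Cela1 and Adh6b encode enzymes, a serine protease of the elastase family and an alcohol dehydrogenase. For Cela1, the lowest, median and highest values at 24 weeks were 7.42, 7.72 and 8.10 in SD, 8.18, 8.87 and 9.49 in HFD and 8.22, 8.86 and 9.46 in HFD-STZ nerve. They were 7.49, 7.86 and 8.49 in HFD-DR and 7.41, 7.76 and 8.09 in HFD-STZ-DR nerve. Both disease groups were above SD without overlap, by 1.09 and 1.03. Cela1 at 16 weeks was at 7.16, 7.58, 7.68, 7.69 and 8.21 in the 5 SD samples, the HFD samples had a lowest, median and highest value of 7.44, 8.20 and 9.18, and the 5 HFD-STZ samples were at 7.68, 7.81, 7.86, 7.99 and 8.11. Cela1 in HFD differed from SD by 0.59 (SE 0.28, 95% interval -0.01 to 1.19), with an adjusted p of 0.589 in limma and an exact permutation p of 0.101, with 3 of 7 HFD samples above all SD samples. For HFD-STZ the Cela1 difference was 0.23 (SE 0.18, 95% interval -0.16 to 0.62), with an adjusted p of 0.647 in limma and an exact permutation p of 0.246. It was 0.10 without SD16wk replicate 4 and 0.36 without SD16wk replicate 2.

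Adh6b was near the filter on low values. Adh6b had a lowest, median and highest value of 2.43, 3.20 and 4.38 in SD and 3.68, 4.82 and 5.29 in HFD nerve at 24 weeks. For Adh6b the same values were 2.73, 3.73 and 4.63 in HFD-STZ, 2.78, 3.05 and 4.64 in HFD-DR and 2.56, 2.78 and 3.46 in HFD-STZ-DR nerve. HFD-DR replicate 1, at 4.64, was far above the other samples of its group. Adh6b at 16 weeks was at 2.73, 3.10, 3.11, 3.26 and 3.50 in the 5 SD samples, the HFD samples had a lowest, median and highest value of 2.45, 3.69 and 4.76, and the 5 HFD-STZ samples were at 3.13, 3.19, 3.25, 3.66 and 3.72. HFD samples overlapped SD, with 5 of 7 above all SD samples and 1 below. Adh6b in HFD differed from SD by 0.67 (SE 0.35, 95% interval -0.08 to 1.42), with an adjusted p of 0.609 in limma and an exact permutation p of 0.106. In HFD-STZ the difference was 0.25 with an exact permutation p of 0.167 and was below the filter for limma.

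**Figure D1:**
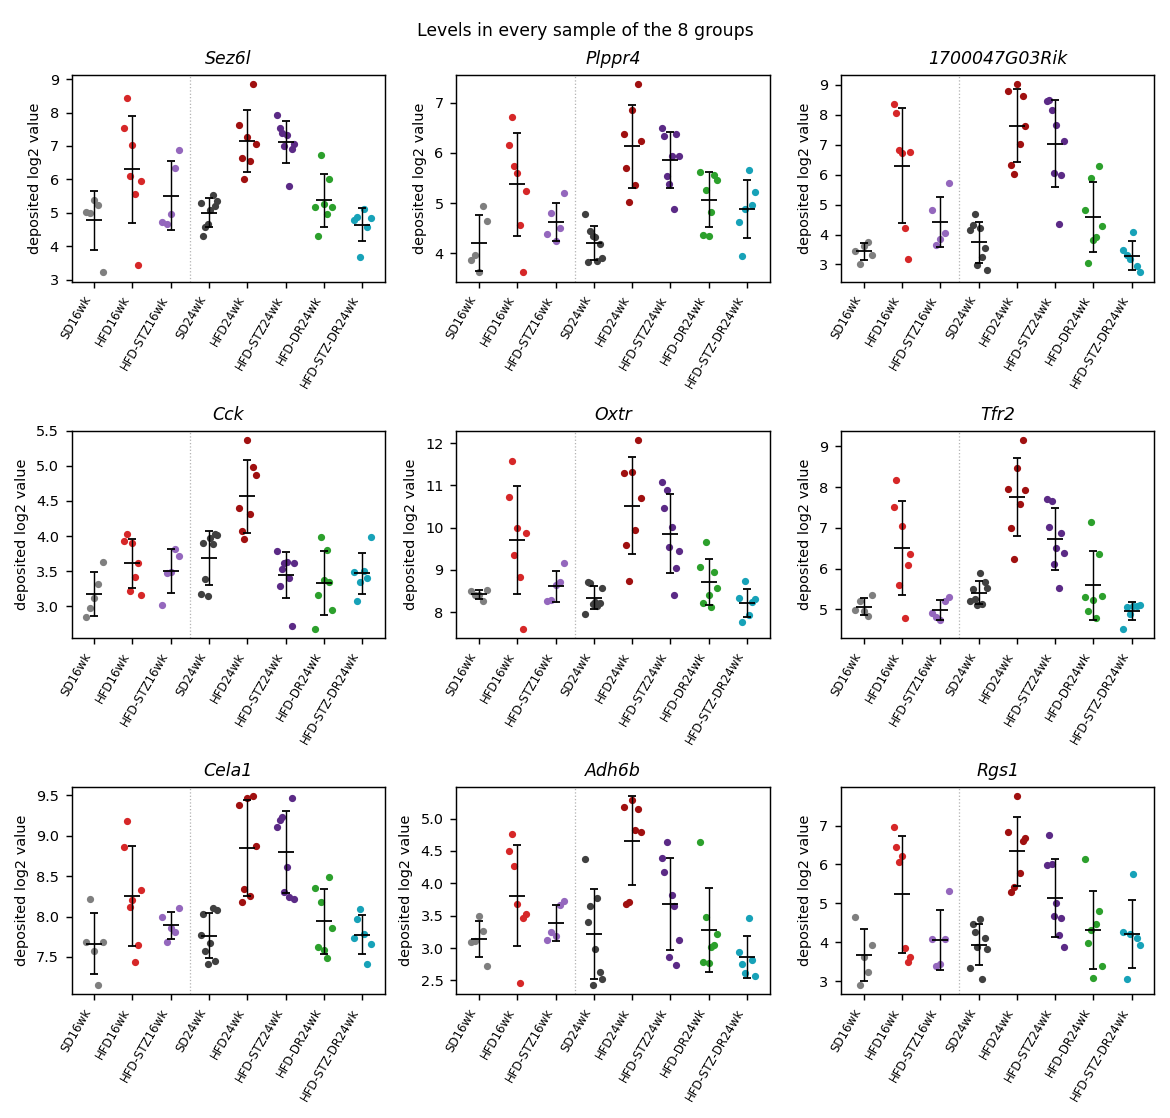
Deposited log2 value (y axis) of each of the 9 genes in each sample (points) of the 8 groups (x axis), with 16-week groups left of the dotted line; the black bar is the mean and its error bar 1 SD. HFD24wk, whose values were used to choose the genes, is the group with the highest mean for all 9. Cck in HFD-STZ24wk (mean 3.45) lies below SD24wk (3.69).

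Across the 9 genes, HFD24wk had the highest group mean in 9 of 9, which is favoured by the choice, as it used these values. HFD exceeded SD at 24 weeks for 9 genes, with a median difference of 2.15, and the samples of both groups did not overlap for 7 of them, against 0.181% of all genes higher without overlap in that comparison, which was used to choose them. HFD-STZ exceeded SD for 8 genes with a median of 1.32 and without overlap for 3 (0.0392% of all genes). After reversal, HFD-STZ-DR was below HFD-STZ for 8 genes, with a median difference of -1.02, and without overlap for 4 (0.185% of all genes), whereas HFD-DR was below HFD for 9 genes, with a median of -1.77, and the groups overlapped for all 9. Relative to SD the median difference that remained was 0.37 in HFD-DR and -0.22 in HFD-STZ-DR nerve. HFD-STZ was below HFD for 9 of 9 genes at 24 weeks, with a median of -0.66. That direction is favoured by the choice, which used the HFD values, so it is not read as an effect of STZ. For Sez6l the direction turned without the samples holding values above 22. Without those samples, HFD was above SD without overlap for 7 genes.

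At 16 weeks, before any reversal had begun, the question whether HFD raises these genes was asked with samples that the choice had not used. Exact permutation tests were 2-sided. In HFD nerve, 9 of 9 genes had a higher mean than in SD, with differences from 0.43 (Cck) to 2.87 (1700047G03Rik) and a median of 1.29, against a median of 0.01 over the 17962 genes tested. Of the 9, 0 had an adjusted p below the threshold of 0.05, and their adjusted p ran from 0.384 to 0.609 in limma with Benjamini-Hochberg adjustment. Cck and Adh6b passed the filter through HFD nerve alone, as their SD means of 3.18 and 3.14 were below it, so their direction carries no weight here. In that comparison 0.00557% of genes (1 gene, Nnat) were higher at that threshold. At an unadjusted p under 0.05, 6 of the 9 genes were higher (Sez6l, Plppr4, 1700047G03Rik, Oxtr, Tfr2 and Rgs1), against 4.98% of all genes, and 3 of 9 (1700047G03Rik, Oxtr and Tfr2) in the exact permutation test. The exact test was not run over all genes, so it has no such share. The 6 became 4 to 8 genes when 1 sample was left out, with 4 without SD16wk replicate 4 or HFD16wk replicate 1, 2 or 4 and 8 without HFD16wk replicate 5. The genes were measured in the same samples and vary together, so they are not independent observations. The 16-week difference was 46.4% (Adh6b) to 73.7% (1700047G03Rik) of that at 24 weeks. The 24-week differences chose the genes and may be large for that reason, so these shares do not measure a growth with age. For Adh6b and Cck the share carries no weight either.

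In HFD-STZ nerve at 16 weeks, 8 genes had a higher mean than in SD and Tfr2 a lower one, with a median of 0.33 over the 9 genes. Of the 8 genes tested, 0 were called (0% of 17879 genes), and 1700047G03Rik alone had an unadjusted p under 0.05 (3.99% of all genes were higher at that level), which became 2 genes with Cela1 when SD16wk replicate 2 was left out. Cck was again below the filter in SD nerve. HFD-STZ was below HFD for 9 of 9 genes at 16 weeks, with a median of -0.79, and 0 were called in limma (0% of 18202 genes), while 1700047G03Rik and Tfr2 had an unadjusted p under 0.05 (2.9% of all genes were lower at that level). That count rested on single samples: it was 6 without HFD16wk replicate 5 or 6, 4 without HFD-STZ16wk replicate 5, and 1 (Tfr2) without HFD16wk replicate 1, 2, 3 or 4 or HFD-STZ16wk replicate 2, 3 or 4. In the exact test only Tfr2 passed 0.05 in this pair. Within HFD16wk the samples did not share 1 level: replicate 2 was the highest sample for 7 genes, replicate 6 the lowest for 5 and replicate 5 the lowest for 3. In HFD-STZ16wk, replicate 5 was the highest for 8 of 9 genes. With the mean log2 value of the adipocyte markers as a covariate the HFD differences from SD ranged from -0.02 (Cck) to 1.88 (1700047G03Rik), and with that of the macrophage markers from 0.21 to 2.33. At an unadjusted p under 0.05 there were 0 genes with the former covariate and 2 genes (1700047G03Rik and Tfr2) with the latter. The share of all genes at that level is not given for these fits, so the counts are not read further. The markers themselves differed between HFD and SD at 16 weeks, by a median of 2.06 for adipocyte and 0.27 for macrophage markers. Diet and marker level therefore cannot be told apart in these fits. With all 8 groups in 1 fit and the run of consecutive sample numbers as a block, the HFD differences from SD ranged from 0.43 to 2.90 and 8 of 9 genes had an unadjusted p under 0.05, where 11.9% of all genes did in either direction. These 8 included Adh6b, whose SD mean at 16 weeks was below the filter. In that fit HFD-STZ differed from SD at that level for 0 of 9 genes (6.47% of all genes) and from HFD for 4 of 9 (2.49% of all genes). The fit of all 8 groups without the run gave 7, 0 and 5 of 9 genes. For HFD and SD, 1684 of all 18069 genes were at that level in either direction in this fit. The shares for the other pairs are not given here.

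**Figure D2:**
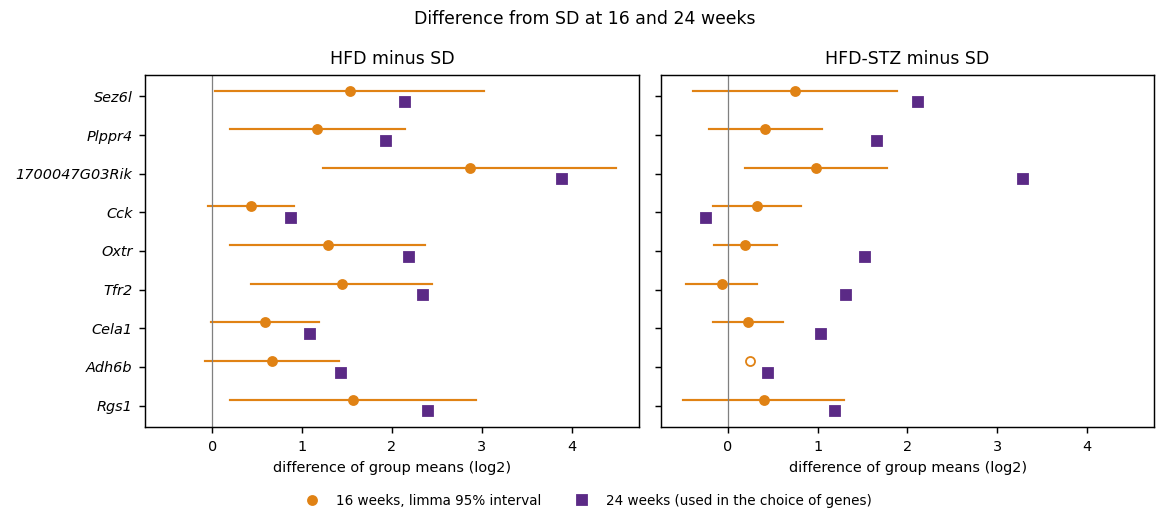
Difference of group means from SD (log2, x axis) for each gene (y axis) at 16 weeks (orange points, line for the 95% interval of limma) and at 24 weeks (purple squares, no error shown since these values chose the genes), for HFD on the left and HFD-STZ on the right. The open point is Adh6b, which was below the filter; all 9 orange points are right of 0 in HFD, from 0.43 to 2.87, and Cck at 24 weeks is left of 0 in HFD-STZ (-0.24).

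The genes of adipocytes and macrophages were measured beside them. Adipoq means were 10.64 ± 1.94 (SD), 13.16 ± 0.95 (HFD) and 11.95 ± 1.45 (HFD-STZ) at 16 weeks (mean ± SD). At 24 weeks they were 12.56 ± 0.90 in SD, 13.34 ± 1.17 in HFD, 13.37 ± 1.04 in HFD-STZ, 12.10 ± 1.26 in HFD-DR and 11.07 ± 1.10 in HFD-STZ-DR nerve. SD nerve differed with age: Adipoq was 1.92 higher at 24 than at 16 weeks (exact permutation p = 0.042), and Plin1 was 1.93 higher (exact permutation p = 0.0389). Over the same samples the 9 genes differed by a median of 0.23, from -0.08 (Oxtr) to 0.51 (Cck). The choice took genes lower in SD24wk than in HFD24wk, which favours low SD24wk values, so no conclusion is drawn from this difference. At 16 weeks HFD exceeded SD by 2.52 for Adipoq (exact permutation p = 0.0177), 2.06 for Plin1 (exact permutation p = 0.0278) and 4.57 for Lep (exact permutation p = 0.00253). At 24 weeks the HFD and SD difference was 0.78 for Adipoq (exact permutation p = 0.168) and 0.40 for Plin1 (exact permutation p = 0.457), whereas Lep, the fat cell hormone leptin, was 3.30 higher (exact permutation p = 0.000622). Between HFD-STZ-DR and HFD-STZ nerve the difference was -2.30 for Adipoq (exact permutation p = 0.00266), -1.93 for Plin1 (exact permutation p = 0.00799) and -3.80 for Lep (exact permutation p = 0.002).

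Of the macrophage genes, Itgax means were 4.92 ± 0.59, 6.41 ± 1.16 and 5.10 ± 0.65 in SD, HFD and HFD-STZ nerve at 16 weeks. At 24 weeks they were 5.61 ± 0.60, 7.39 ± 0.95, 6.66 ± 1.06, 5.95 ± 0.43 and 5.53 ± 0.19 in the SD, HFD and HFD-STZ groups and then in HFD-DR and HFD-STZ-DR nerve. Itgax exceeded SD in HFD by 1.79 at 24 weeks (exact permutation p = 0.00186) and by 1.50 at 16 weeks (exact permutation p = 0.0303). Cd68 differed by 0.62 and 0.31, with exact permutation p of 0.0696 and 0.258. In whole nerve, more cells of a type and more RNA per cell cannot be told apart. Of the 10 adipocyte and the 10 macrophage markers, 10 and 10 were above the filter and 0 were at 0.

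The summed level of the 10 adipocyte markers (log2 of the sum, lowest to highest sample) was 12.35 to 16.55 in SD, 15.70 to 17.44 in HFD and 13.30 to 16.71 in HFD-STZ nerve at 16 weeks. At 24 weeks it was 14.44 to 17.04 in SD, 15.03 to 17.65 in HFD, 14.84 to 17.50 in HFD-STZ, 14.09 to 17.03 in HFD-DR and 12.90 to 15.70 in HFD-STZ-DR nerve. That of the 10 macrophage markers stayed within 14.37 to 16.27 in all groups. For HFD and SD at 16 weeks, 7 of 10 adipocyte, 4 of 4 erythroid and 4 of 6 lymphocyte markers were higher at an unadjusted p under 0.05, with median differences of 2.06, 2.67 and 0.71, and 0 of them passed the adjusted threshold. At 24 weeks and the same level, 4 of 10 adipocyte markers were higher and 1 lower between HFD and SD, with a median of 0.63, as were 3 and 1 of 10 macrophage markers (median 0.29). Between HFD-STZ and SD, 2 of 10 adipocyte markers were higher and 3 of 4 mast cell markers lower, with medians of 0.66 and -0.67. After reversal, HFD-DR nerve had 5 of 10 adipocyte, 6 of 10 macrophage and 4 of 4 mast cell markers lower than HFD, with medians of -1.06, -0.53 and -0.94, 1 adipocyte marker higher, and 5 of 6 skeletal muscle markers higher, with a median of 2.61. HFD-STZ-DR nerve had 9 of 10 adipocyte markers lower than HFD-STZ (median -1.85) and 2 of 10 macrophage markers (median -0.29). None of these passed the adjusted threshold. Some of these markers differed in the same comparisons as the 9 genes and others did not. The 16-week fits with marker means as covariates cannot separate diet from marker level. The part of the markers in the values of the 9 genes was not otherwise tested.

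**Figure D3:**
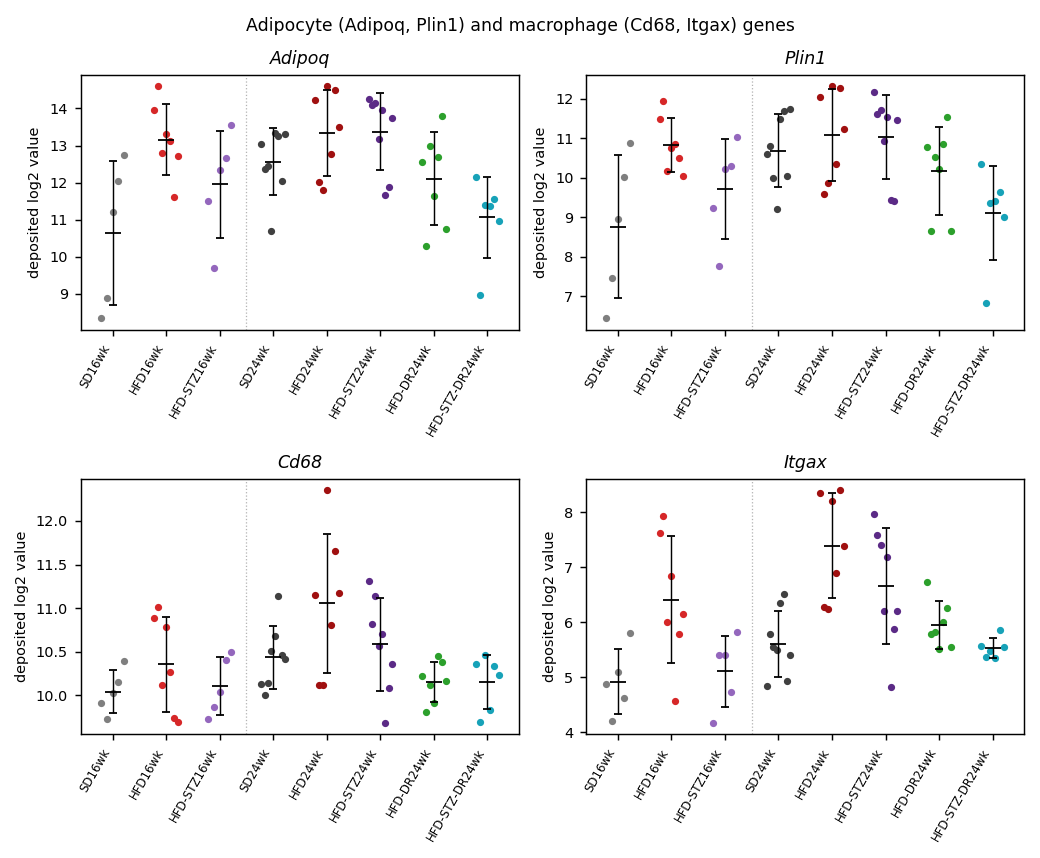
Deposited log2 value (y axis) of Adipoq, Plin1, Cd68 and Itgax in each sample (points) of the 8 groups (x axis), with the mean and 1 SD as black bars. Adipoq and Plin1 are higher in SD at 24 than at 16 weeks (by 1.92 and 1.93), and Itgax has its highest mean in HFD24wk (7.39).

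The spread of the 9 genes within groups was set against the markers, using deviations from group means over 53 samples, so that differences between group means, which chose the genes at 24 weeks, do not enter. Permutation p-values were 2-sided with 100000 resamples, and 1e-05 is the smallest they can give. Pooled over the groups, all 36 relations between the 9 genes and the 4 markers were positive and had a permutation p under 0.05. Within single groups of 6 or more samples this was not always so. With Adipoq, Tfr2 had a positive r in 5 of 6 such groups, from 0.92 in HFD24wk to -0.51 in HFD-STZ-DR24wk. Plppr4 was also positive in 5 of 6, from 0.91 in HFD24wk to -0.15 in SD24wk. For 1700047G03Rik r was positive in 6 of 6, from 0.99 in HFD24wk to 0.09 in HFD-STZ-DR24wk. Across the 9 genes, r ranged from 0.37 to 0.62 with Adipoq, from 0.34 to 0.63 with Plin1, from 0.46 to 0.73 with Cd68 and from 0.46 to 0.78 with Itgax. A positive relation was common in this tissue: at an adjusted p under 0.05 in limma, 16.6% of all genes positively related to Adipoq, 17.7% to Plin1, 17.2% to Cd68 and 9.8% to Itgax. Of the 9 genes, 9, 8, 9 and 9 were, and Cela1 with Plin1 was the exception (adjusted p = 0.0541). In the 16-week samples alone r ranged from 0.19 to 0.65 for Adipoq, 0.11 to 0.72 for Plin1, 0.44 to 0.84 for Cd68 and 0.49 to 0.84 for Itgax. With these 17 samples 14 of the 36 relations had a permutation p above 0.05.

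Oxtr had the closest relation to Itgax (r = 0.78, rho = 0.76, permutation p of 1e-05 and 1e-05, 0.75 without the 2 samples farthest from the median, limma adjusted p = 5.65e-08), and among the genes ranked by that relation it was number 14 of 18068. 1700047G03Rik was number 74 (r = 0.71, rho = 0.64, permutation p of 3e-05 and 5e-05, 0.62 without the 2 samples farthest from the median, limma adjusted p = 2.77e-06) and Tfr2 number 84 (r = 0.71, rho = 0.59, permutation p of 1e-05 and 4e-05, 0.61 without the 2 samples farthest from the median, limma adjusted p = 4.39e-06). Cck had its lowest r with Itgax: the values were 0.46 for Itgax, 0.65 with Cd68, 0.63 with Plin1 and 0.59 with Adipoq. For Sez6l the values were 0.52, 0.56, 0.39 and 0.51 in the same order. The difference between 2 correlations of 1 gene was not tested.

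**Figure D4:**
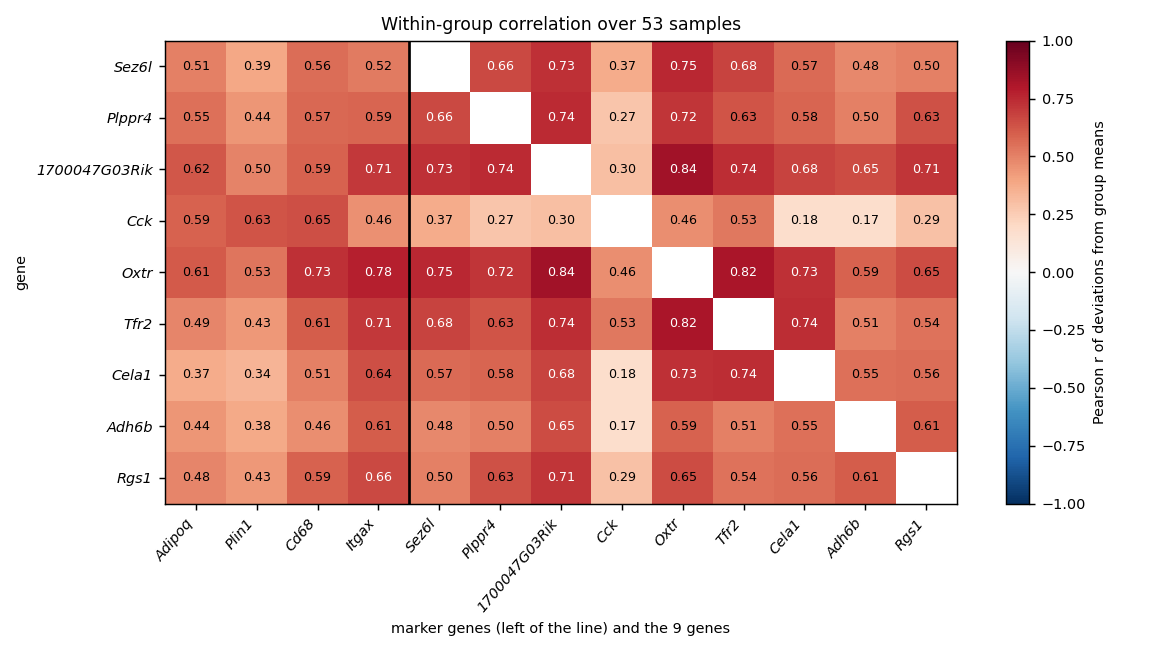
Pearson r of deviations from group means over 53 samples for the 9 genes (rows) with Adipoq, Plin1, Cd68 and Itgax (left of the line) and with each other (right). All marker cells are positive, from 0.34 to 0.78, and Cck has the palest cells with the other genes, down to 0.17 with Adh6b.

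**Figure D5:**
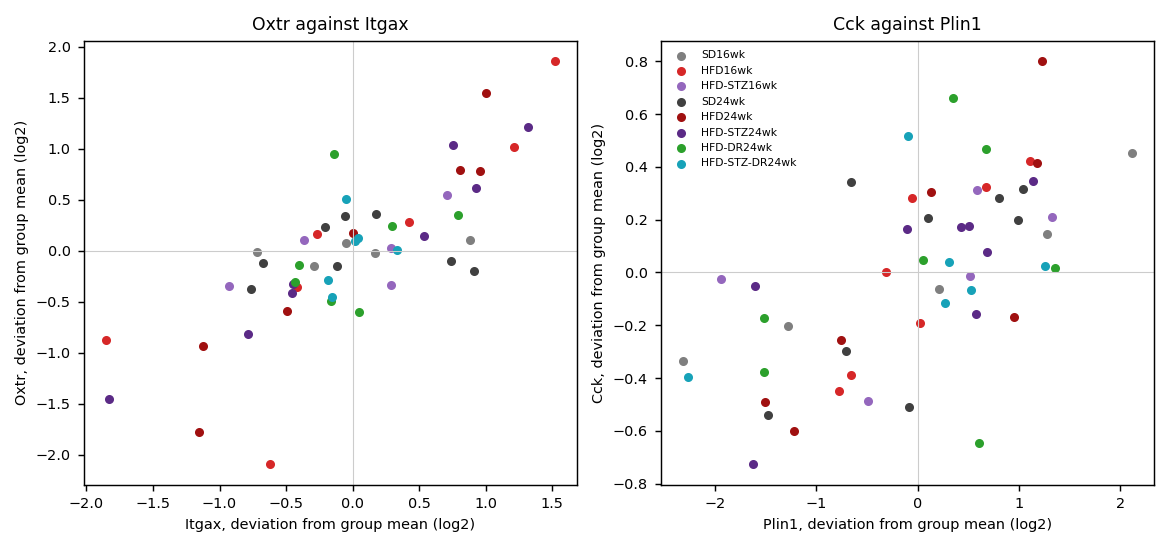
Deviation from the group mean (log2) of Oxtr (y axis) against Itgax (x axis) on the left and of Cck against Plin1 on the right, with 1 point per sample coloured by group. Both clouds slope upwards (r = 0.78 and 0.63 over 53 samples), but not equally in all groups. Within groups of 6 or more samples, r of Oxtr with Itgax ran from 0.12 in SD24wk to 0.97 in HFD-STZ24wk. That of Cck with Plin1 ran from 0.33 in HFD-DR24wk to 0.87 in HFD16wk.

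Among themselves the 9 genes had a median r of 0.60 over 36 pairs of genes, from 0.17 (Cck with Adh6b) to 0.84 (1700047G03Rik with Oxtr). The median r of a gene with the other 8 was 0.30 for Cck and between 0.53 and 0.72 for the others. These values describe shared samples and are given without a test.

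For each gene the 3 genes with the most similar deviations were taken from 18060 genes, by Pearson r over 53 samples. For 1700047G03Rik they were Tph2 (0.93), Slc5a7 (0.89) and Ubd (0.89), and for Sez6l Tph2 (0.79), Slc5a7 (0.79) and Lpgat1 (0.75). For Plppr4 they were Tph2 (0.75), Hdac9 (0.73) and Mest (0.73), for Oxtr Mest (0.86), Ubd (0.85) and Lpgat1 (0.85) and for Tfr2 Itgad (0.85), Ubd (0.82) and Tph2 (0.77). Tph2, which encodes a tryptophan hydroxylase of serotonin synthesis best known from neurons, appeared for Sez6l, Plppr4, 1700047G03Rik and Tfr2, and Ubd, a ubiquitin-like protein, for 1700047G03Rik, Oxtr and Tfr2. Slc5a7 is the choline transporter of cholinergic neurons. Tph2 also had the smallest adjusted p in limma of all genes between HFD and SD at 24 weeks (9.98e-06) and between HFD-DR and HFD (0.028). The cells that these RNAs came from were not tested. Cela1 was most like Pex16 (0.85), Nudt18 (0.79) and Lgals3 (0.78), and Lgals3 encodes galectin-3, which macrophages make. Cck was most like Irak2 (0.78), Kctd12b (0.78) and Pla2g15 (0.78), Adh6b Lipf (0.78), Ptchd4 (0.75) and Sirpb1c (0.72) and Rgs1 Il1rn (0.77), Klf14 (0.73) and Clec4d (0.72), where Il1rn encodes the interleukin-1 receptor antagonist. Cela1, Cck, Adh6b and Rgs1 shared none of their 3 with another gene of the 9. The median r over all genes compared was between -0.05 and 0.02.

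Other genes of the 8 families and pathways to which the 9 genes belong were read from lists fixed with earlier results of these data known. Of 46 such genes outside the 9, 31 passed the filter in the HFD and SD comparison at 24 weeks, and 0 were called in either direction at an adjusted p under 0.05, where 0.11% of all genes were higher. At an unadjusted p under 0.05, 3 of the 31 were higher, where 5.54% of all genes were: Sez6 (0.92, SE 0.21, adjusted p = 0.111) and Sez6l2 (0.67, SE 0.19, adjusted p = 0.253), the other genes of the Sez6l family, and Hfe (0.28, SE 0.13, adjusted p = 0.542), the haemochromatosis protein that partners transferrin receptors. Both other SEZ6 genes therefore had higher means than SD at 24 weeks, and at 16 weeks their differences were 0.39 and -0.01, neither below an unadjusted 0.05. In HFD-STZ and SD nerve at 24 weeks 0 of 31 were called, where 0.0336% of all genes were higher. Among the reversal comparisons 0 of 32 were called for HFD-DR (0.0108% of all genes were lower) and 0 of 31 for HFD-STZ-DR (0.084% of all genes were lower). The ligands and receptors beside Oxtr and Cck, namely Oxt, Avp, Avpr1b, Avpr2, Cckar and Cckbr, were below the filter, and of the other elastases Cela2a, Cela3a and Cela3b were too. Tfrc, the main transferrin receptor, differed by -0.29 between HFD and SD at 24 weeks (adjusted p = 0.651), and Trf, transferrin, by -0.01 (adjusted p = 0.997). For HFD-STZ-DR and HFD-STZ, Trf was -0.84 with an adjusted p of 0.129. Of the other R4 regulators, Rgs18 differed by 0.47 between HFD and SD at 24 weeks (adjusted p = 0.568) and Rgs2 by 0.06.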

How the data were processed

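RNA-seq of sciatic nerve was read from 1 file per sample. The authors deposited log2 values per gene, normalised between samples in a way not given in the sources used here, and the submitters' processing notes name HISAT2, featureCounts, DESeq2 and the mm10 build. The 9 genes and all gene lists were chosen with earlier results of these data known. The study's methods give an approximate number of read pairs per sample, but counts per gene were not used here, so no counting interval is given. Groups came from the sample titles. For each 16-week pair of groups, genes with a mean of at least 10 on the linear scale were tested with limma (version 3.58.1, R 4.3.3) with a variance prior following mean expression and Benjamini-Hochberg adjustment over all genes, at a threshold of 0.05, and 25 genes with any value above 22 were left out. For a single gene an exact permutation test, 2-sided, was added (Python 3.11.15, scipy 1.17.1), and correlations within groups with 100000 permutations within groups. The same limma fit was run on 24-week pairs for the shares of all genes and for the genes of the fixed lists. Relations of all genes to each marker were fitted with limma over all 53 samples beside the 8 groups. Differences at 24 weeks that chose the 9 genes are given without a test. Genes named beside the 9 are the 4 markers, the 3 genes most like each of the 9, and genes of the fixed lists; Nnat and the overlapping or neighbouring genes were added after their values were seen. The limma steps were tested on simulated data. The alternatives were filters, scalings, covariates, other sample sets and leaving out each sample.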

Additional observations from a re-analysis of the deposited data

Results flagged for a closer look

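In 4 of the 72 combinations of gene and group tested, the lowest or highest sample was far from the others of its group by Dixon's criterion at the 95% level, and chance gives about 1 in 20. For Sez6l, SD16wk replicate 5 was the lowest of 5 samples at 3.22, and the nearest other sample was at 5.00. For Cck, HFD-STZ24wk replicate 7 was the lowest of 8 at 2.72, with the nearest at 3.29, and this sample also held the 23 genes with values above 22. For Tfr2, HFD-STZ-DR24wk replicate 1 was the lowest of 6 at 4.53, with the nearest at 4.90. For Adh6b, HFD-DR24wk replicate 1 was the highest of 7 at 4.64, with the nearest at 3.47.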

How the results depend on the processing

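Of the 9 genes, 0 passed the adjusted threshold in any alternative at 16 weeks, and the lowest adjusted p in limma was 0.0575 for HFD and SD, 0.411 for HFD-STZ and SD and 0.542 for HFD-STZ and HFD. The 0.0575 was that of 1700047G03Rik with all 8 groups and the run as a block. That fit also uses the 24-week samples that chose the genes. The number of all genes called between HFD and SD at 16 weeks, 1 as reported, was 7 with all 8 groups in 1 fit, 16 with the run of consecutive sample numbers in the titles as a block, 7 with the adipocyte marker mean and 5 with the macrophage marker mean, and 1 to 4 when 1 sample was left out (4 without HFD16wk replicate 6). Between HFD-STZ and SD it was 0 as reported, 1 with all 8 groups, 1 with the run of sample numbers, 7 with the adipocyte marker mean, and 0 to 1 when 1 sample was left out (1 without SD16wk replicate 5 or HFD-STZ16wk replicate 2). The sign turned for Cck between HFD and SD with the adipocyte marker mean (-0.015). Between HFD-STZ and HFD it turned for Sez6l (0.28) and Cck (0.085) with the adipocyte marker mean and for Cck with the macrophage marker mean (0.023), and Cck ran from -0.19 to 0.013 when 1 sample was left out (0.013 without HFD-STZ16wk replicate 1). Tfr2 between HFD-STZ and SD ran from -0.15 to 0.0015 (0.0015 without SD16wk replicate 5). In alternatives chosen after seeing the data, leaving out the samples with values above 22 gave 0.086 for Sez6l between HFD-STZ and HFD and -0.085 for Cck between HFD-STZ-DR and HFD-STZ at 24 weeks. The cause of these changes was not tested. Of 252 correlations in the alternatives, 15 no longer passed 0.05, 14 of them in the 16-week samples alone, the other being Cela1 with Plin1 when samples were centred on their median (0.26). The labels carry no replicate numbers and do not say what a run of sample numbers stands for, so that block is the nearest to a pairing. Counts per gene were not used, so the effect of depth on the low values of Adh6b and Cck could not be read.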
